A study of Mus musculus with 12 samples.

Results

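The aminoacyl-tRNA synthetase genes were followed in mouse T helper 2 (Th2) cells, the T cells known for driving allergic inflammation. They were chosen by name: rows of the RNA table whose symbol is an amino acid letter followed by ars, with the endings used for second enzymes, subunits and like genes, or Eprs, and whose mean was at least 10 normalized counts over 6 libraries. All 37 rows with such a symbol passed that mean, out of 18074 genes tested and 25700 rows in all. By their known place of work 19 were cytosolic, 16 were mitochondrial, and Gars and Kars serve both compartments. Ears2, the mitochondrial glutamyl-tRNA synthetase, has a symbol outside the pattern and is described with the other genes of tRNA charging.

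The compared groups were labelled cKO and WT by genotype, with 3 RNA-seq libraries in each and 3 separate ATAC-seq libraries in each, 12 libraries in all. The labels give T cell as the cell type and Th2 in the sample names. The name of the deleted gene, the Cre driver, strain, age, sex and stimulation of the cells are not given in the sources used here; NRF2, the product of Nfe2l2 and an activator of antioxidant genes, is named in the title of the study. ATAC-seq reads open chromatin by where a transposase can cut it. Nothing in the labels says whether the libraries of a group came from separate animals or cultures, so p-values measure the spread between these libraries only.

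Aminoacyl-tRNA synthetases join each amino acid to its own tRNA, the step that gives the genetic code its meaning. The cytosolic enzymes feed the ribosomes that translate nuclear mRNAs, several of them bound together in a multisynthetase complex, and the mitochondrial enzymes, encoded in the nucleus, charge the tRNAs that translate the respiratory chain subunits of the mitochondrial genome. Many cytosolic synthetase genes are known targets of ATF4, the transcription factor of the amino acid response, and T cells raise them when they are activated.

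The RNA table held between 6431081 and 7372007 normalized counts per library, and the ATAC-seq libraries are given with their own depth under the processing. Nfe2l2 had 452.8, 326.4 and 391.5 normalized counts in the cKO libraries, against 169.9, 155.3 and 147.4 in the WT libraries. That table has 1 value per gene, so a deletion of part of a gene cannot be read from it. The Y-linked gene Ddx3y was at 0 in all 3 cKO RNA libraries, against 140.5, 123.4 and 131.7 in the WT libraries, so genotype and sex of the source cannot be told apart in any RNA comparison. All 8 T cell markers were detected, at a summed 0.236 to 0.294% of the counts in cKO libraries and 0.230 to 0.258% in WT libraries. Within that sum Cd3d was lower in cKO without overlap, at 1743, 2054 and 1809, against 2367, 2478 and 2900 in WT. Cd3e leaned the other way, at 1053, 980.9 and 1169 in cKO, against 980.9, 791.9 and 758.7 in WT. So did Cd4, at 3400, 2029 and 3968 in cKO, against 2274, 1786 and 1804 in WT, with overlap. Of 7 Th2 markers, Il4 and Il5 were below a mean of 10, and the 7 summed to 0.0266 to 0.0315% in cKO libraries and 0.0287 to 0.0338% in WT libraries. Within that sum Il13 had 322.4, 438.1 and 393.6 normalized counts in cKO, against 1093, 693.0 and 644.6 in WT, without overlap. Ccr8 went the other way without overlap, at 293.2, 231.9 and 356.4 in cKO, against 203.8, 159.2 and 192.7 in WT. For the rest of the 7 the groups overlapped. Of all genes tested, 9.76% were lower and 7.4% higher in cKO without overlap. Markers of B cells summed to 0.00287 to 0.0043% in cKO libraries and 0.00201 to 0.00545% in WT libraries; those of myeloid cells summed to 0.00208 to 0.00321% and 0.00234 to 0.00345% in the same order. Each of the lists for CD8, NK and gamma delta T cells, granulocytes, stroma and erythroid cells reached at most 0.00587% in any library.

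Apart from Lars2, the estimated RNA differences of the synthetase genes between cKO and WT cells lay from -0.48 to 0.42 on the log2 scale. Equality was not tested. None of the 37 passed limma's test at an adjusted p of 0.05, where 0.0332% of all 18074 genes passed as higher and 0.172% as lower in cKO (37 genes in all, 0.205%). At an unadjusted p under 0.05, Lars2 and Lars were lower in cKO and no member was higher, against 6.05% of all genes in each direction. The authors' deposited table called Lars2 alone among the members, as lower in cKO; it called 1.78% of the 9263 genes with an adjusted p as higher and 3.9% as lower. These are bulk cells, so fewer cells of a type and less RNA per cell cannot be told apart. Differences are log2 of the normalized count plus 1, cKO minus WT. Of the members, 17 were above 0 and 20 below, where 45.0% of all genes were below 0.

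The members had a median difference of -0.04, beside 0.06 over all genes tested. Without Lars2 it was -0.03, and the single values ran from -0.48 for Pars2 to 0.42 for Iars. Standard errors ran from 0.155 to 0.427. For 34 of the 37 members the whole 95% interval lay between -1 and 1, that is, within a 2-fold change either way, and those that reached further included Lars2 and Pars2. An interval inside these bounds was found for 44.4% of all genes. The groups did not overlap for Sars, higher in cKO, and for Lars2, Lars and Dars, lower in cKO, where 7.4% of all genes were higher and 9.76% lower without overlap (17.2% in all). The plot of values by library and the plot of differences with their intervals show this for 36 members.

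**Figure D1:**
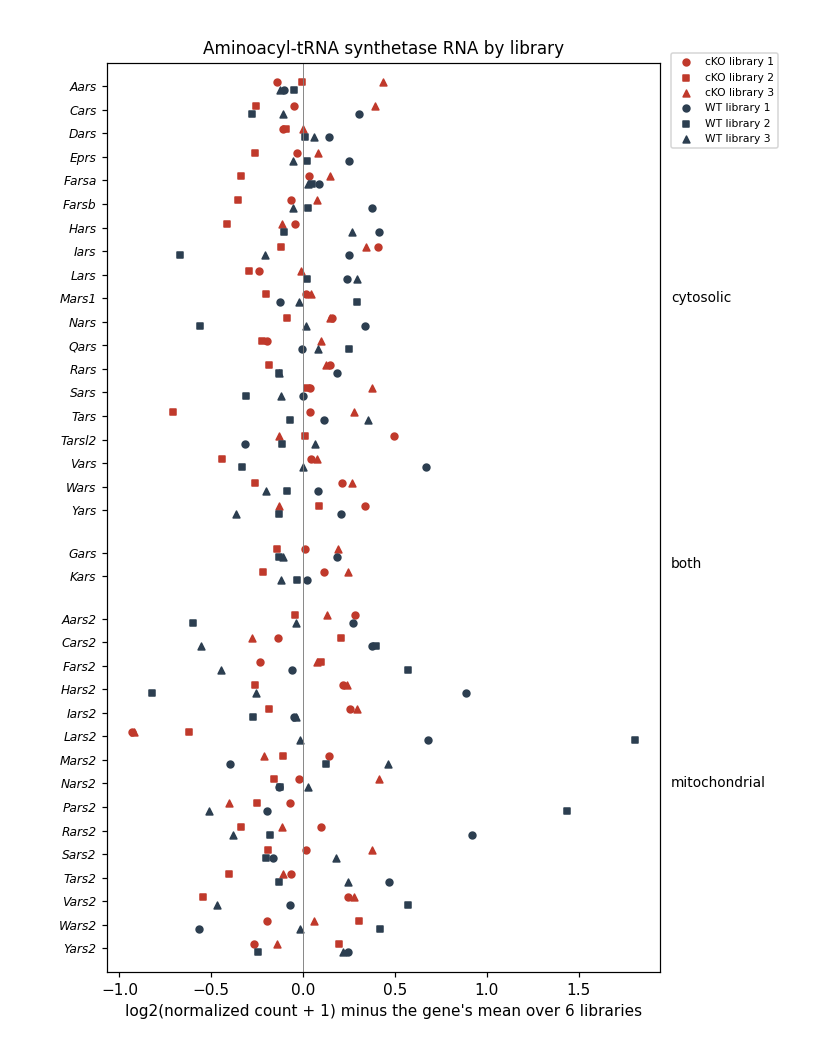
RNA of 36 synthetase genes in the 6 libraries, as log2(normalized count + 1) minus the gene's mean over the libraries (x axis). Red marks are cKO libraries and dark marks WT libraries, 1 shape per library number, with genes grouped by compartment. Lars2 stands out with all 3 WT libraries to the right of the 3 cKO libraries, WT libraries 1 and 2 far and WT library 3 less so. For the others most marks lie close to 0 and overlap.

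**Figure D2:**
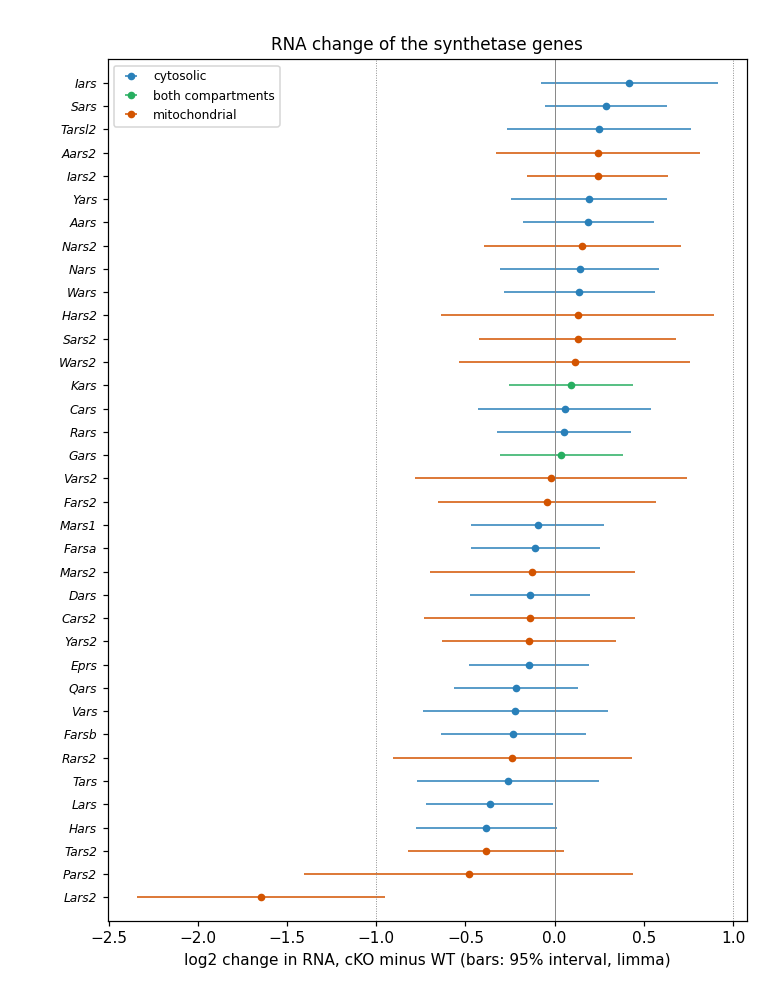
Difference in RNA of 36 synthetase genes, cKO minus WT on the log2(normalized count + 1) scale (x axis), with its 95% interval from limma, colored by compartment. Dotted lines mark -1 and 1. Lars2 lies at -1.65, with its interval below 0, and the others lie between -0.48 and 0.42.

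The member with the largest difference was Lars2, the mitochondrial leucyl-tRNA synthetase (ENSMUSG00000035202). It had 4324, 5360.4 and 4354 normalized counts in the cKO libraries, against 13198, 28786 and 8149.9 in the WT libraries. The groups did not overlap, and the WT libraries differed more from each other than the cKO libraries did. The means were 4679 ± 590.1 in cKO and 16711 ± 10757 in WT (SD, n = 3 each). Over all 6 libraries Lars2 averaged 10695 normalized counts, beside 1725 for Sars, the next highest member. The next highest mitochondrial member, Iars2, averaged 777.8. These counts are not corrected for gene length, and the reason for the high level of Lars2 was not tested. On the log2 scale Lars2 was at -1.65 (SE 0.322, 95% interval -2.34 to -0.95), 3.13-fold lower in cKO. This missed limma's threshold, with an adjusted p of 0.0635. In the authors' deposited table it passed, with a log2 change of -1.43 and an adjusted p of 0.0217.

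Over 16 other ways of testing, the Lars2 difference ran from -2.07 to -1.16 and was always lower in cKO, while its limma or authors' adjusted p ran from 0.00133 to 0.461. It passed in 6 of them. Without WT library 3, the lowest of the WT libraries, it passed at an adjusted p of 0.033, with a log2 difference of -2.07. Without WT library 2, the highest, the limma adjusted p was 0.0832.

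Lars2 also set how much of the RNA the family took. It was 14.2, 19.3 and 13.3% of the members' summed counts in cKO libraries, against 31.1, 54.4 and 24.5% in WT libraries. The summed counts of all members were 0.434, 0.432 and 0.444% of the library total in cKO, against 0.577, 0.765 and 0.471% in WT. Without Lars2 the sums were 0.373, 0.349 and 0.385% in cKO, against 0.398, 0.349 and 0.356% in WT. These means were 0.369 ± 0.0182% in cKO and 0.368 ± 0.0262% in WT (SD, n = 3 each), so the other 36 genes together took an equal share to within the spread.

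Mitochondrial RNA was read beside Lars2, whose enzyme serves mitochondrial translation. Genes of the mitochondrial genome took 3.96, 2.91 and 4.47% of the counts in cKO libraries, against 2.48, 3.35 and 2.15% in WT libraries, and these groups overlap. The mitochondrial large ribosomal RNA, mt-Rnr2, averaged 25339 ± 1411 normalized counts in cKO and 24885 ± 2188 in WT, and the small one, mt-Rnr1, 11545 ± 863.4 in cKO and 7837 ± 437.5 in WT (SD, n = 3 each). Whether the Lars2 reads fell evenly over the gene cannot be told from 1 value per gene.

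Among the cytosolic enzymes, 9 were above 0 and 10 below, with a median of -0.09. Lars, the cytosolic leucyl-tRNA synthetase and a leucine sensor for mTORC1 in human cells, had 781.7, 754.5 and 918.9 normalized counts in cKO libraries, against 1091, 937.5 and 1133 in WT libraries. Every cKO value lay below every WT value. The log2 difference was -0.36 (SE 0.165), with a limma adjusted p of 0.400. Hars, which charges histidine tRNA, had 954.8, 739.3 and 906.9 in cKO, against 1312, 915.8 and 1182 in WT, with cKO library 1 above WT library 2 and a log2 difference of -0.38 (limma adjusted p 0.429).

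Sars and Iars were on the other side. Sars, the cytosolic seryl-tRNA synthetase, had 1754, 1731 and 2211 normalized counts in cKO, against 1707, 1375 and 1570.3 in WT; all cKO values lay above all WT values, cKO library 2 only just above WT library 1. Its log2 difference was 0.29 (SE 0.158, limma adjusted p 0.494). Iars, the cytosolic isoleucyl-tRNA synthetase, had 1307, 906.3 and 1247 in cKO, against 1171, 618.9 and 852.5 in WT. WT library 1 lay above cKO library 2, and the log2 difference was 0.42 (SE 0.229, limma adjusted p 0.494).

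The multisynthetase complex holds 8 of the members, Dars, Eprs, Iars, Kars, Lars, Mars1, Qars and Rars, and 5 of them were below 0, with a median of -0.12. The 12 cytosolic members outside it had a median of 0.10. Eprs, which fuses glutamyl- and prolyl-tRNA synthetases in a single protein, had 1647, 1408 and 1788 normalized counts in cKO, against 2003, 1716 and 1626 in WT (log2 difference -0.14, limma adjusted p 0.754). Qars, for glutamine, had 1025, 1006 and 1257 in cKO, against 1170.3, 1395 and 1243 in WT (log2 difference -0.22, limma adjusted p 0.629). In both genes the highest cKO library lay above the lowest WT library. Dars, for aspartate, had 786.9, 794.6 and 849.1 in cKO, against 936.4, 853.3 and 883.8 in WT, close together and without overlap; Mars1, for methionine, averaged 871.7 ± 78.2 in cKO and 935.8 ± 146.6 in WT, and Rars, for arginine, 898.9 ± 111.4 and 866.1 ± 112.5 in the same order (SD, n = 3 each).

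Kars and Gars make both the cytosolic and the mitochondrial lysyl- and glycyl-tRNA synthetase. Kars had 1493, 1187 and 1637 normalized counts in cKO, against 1402, 1351 and 1269 in WT, and Gars 1483, 1334 and 1684 in cKO, against 1675, 1346 and 1366 in WT. Both overlapped, with log2 differences of 0.09 and 0.04 and limma adjusted p values of 0.867 and 0.949. The sign of each turned when a single library was left out.

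Farsa and Farsb are the alpha and beta subunits of the cytosolic phenylalanyl-tRNA synthetase, which works only as a complex of both. Farsa had 1152, 889.6 and 1246 normalized counts in cKO, against 1196, 1166 and 1148 in WT (log2 difference -0.11, SE 0.167, limma adjusted p 0.844). Farsb had 704.4, 576.0 and 775.9 in cKO, against 956.3, 751.3 and 708.6 in WT (log2 difference -0.23, SE 0.187, limma adjusted p 0.664). cKO library 2 was the lowest of the 6 for both subunits.

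The remaining cytosolic members are given by their means (SD, n = 3 each). Aars, for alanine, averaged 1524 ± 329.7 normalized counts in cKO and 1319 ± 36.3 in WT. Nars, for asparagine, averaged 1584 ± 148.2 in cKO and 1479 ± 442.2 in WT. Cars, for cysteine, averaged 500.0 ± 118.7 in cKO and 478.8 ± 102.4 in WT. For these 3 the mean was higher in cKO, by less than the larger of the SDs. Tars, for threonine, averaged 772.0 ± 249.9 in cKO and 896.8 ± 134.7 in WT, and Tarsl2, a second cytosolic threonyl-tRNA synthetase, 269.4 ± 63.9 in cKO and 224.2 ± 30.0 in WT. Vars, for valine, averaged 1027 ± 193.5 in cKO and 1233 ± 453.1 in WT, and its highest value was 1739.8 in WT library 1. Wars, for tryptophan, averaged 617.0 ± 116.8 in cKO and 555.2 ± 55.1 in WT, and Yars, for tyrosine, 665.0 ± 108.8 in cKO and 584.2 ± 117.5 in WT.

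Of the 16 mitochondrial enzymes, 6 were above 0 and 10 below, with a median of -0.08, or -0.04 without Lars2. Tars2, for threonine, had 541.0, 427.9 and 523.1 normalized counts in cKO, against 781.7, 516.0 and 669.9 in WT (log2 difference -0.39, SE 0.201, limma adjusted p 0.475). WT library 2 lay within the cKO values, and the other WT libraries lay above them. Iars2, for isoleucine, had 918.2, 676.0 and 943.4 in cKO, against 743.0, 637.0 and 749.4 in WT (log2 difference 0.24, SE 0.183, limma adjusted p 0.639).

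Several mitochondrial members owed a wide spread to a single WT library. Pars2, for proline, had 114.0, 100.6 and 90.4 normalized counts in cKO, against 104.2, 326.3 and 83.6 in WT, where library 2 stood far above the other 5. Hars2 had 348.6, 249.6 and 353.6 in cKO, against 555.0, 168.8 and 250.4 in WT. Rars2 had 289.9, 214.0 and 249.9 in cKO, against 513.5, 238.9 and 207.6 in WT. In both, WT library 1 was the highest of the 6. Over the 16 genes the coefficient of variation (SD as a percent of the mean) had a median of 16.1% in cKO and 33.1% in WT, and it was higher in WT for 13 of the 16. For the cytosolic members the medians were 14.8% in cKO and 13.4% in WT, and for all genes 22.8% and 26.9% in the same order. The coefficient was higher in WT for 9 of the 19 cytosolic members and for 10914 of the 18074 genes tested. No test was made of this difference in spread.

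The other mitochondrial members overlapped as well (means with SD, n = 3 each). Aars2 averaged 223.1 ± 25.4 normalized counts in cKO and 193.2 ± 56.2 in WT, Nars2 168.4 ± 36.4 in cKO and 149.1 ± 9.67 in WT, and Sars2 178.6 ± 36.5 in cKO and 162.2 ± 24.5 in WT. Wars2 averaged 152.4 ± 26.5 in cKO and 145.0 ± 48.1 in WT. Those 4 had the higher mean in cKO. Cars2 averaged 286.8 ± 51.3 in cKO and 326.8 ± 108.0 in WT, Yars2 300.0 ± 51.4 in cKO and 332.2 ± 59.9 in WT, and Mars2 191.0 ± 24.7 in cKO and 213.3 ± 61.3 in WT. Fars2 averaged 186.6 ± 23.0 in cKO and 199.6 ± 73.0 in WT, and Vars2 105.3 ± 30.6 in cKO and 108.1 ± 40.7 in WT. Those 5 had the lower mean in cKO.

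For 14 amino acids the table held a cytosolic and a mitochondrial enzyme from separate genes, and in 10 pairs both differences had the same sign, all read in the same 6 libraries. In the leucine pair both genes were lower in cKO without overlap between the groups, at -0.36 for Lars and -1.65 for Lars2. Of all genes, 9.76% were lower without overlap. Neither gene of the pair passed limma's threshold (adjusted p 0.400 for Lars and 0.0635 for Lars2). The histidine, cysteine, arginine and tyrosine pairs had opposite signs. Hars and Hars2 are neighbours whose annotated spans overlap by 4 bp, so their values are uncertain where reads could be assigned to either.

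The libraries differed in how high the members stood as a whole. Members were highest in WT library 1 for 12 genes, in cKO library 3 for 10 and in WT library 2 for 8. They were lowest in cKO library 2 for 16 genes and in no case in cKO library 3. The median deviation of the members from their own means was 0.01, -0.19 and 0.08 on the log2 scale in cKO libraries 1 to 3, against 0.18, -0.09 and -0.04 in WT libraries 1 to 3. Over all genes those medians lay between -0.00 and 0.02. The members thus stood lowest in 1 cKO library and highest in 1 WT library, and the part of this in the differences was not tested. Without cKO library 2 the median difference of the members was 0.03, and without WT library 1 it was 0.01.

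**Figure D3:**
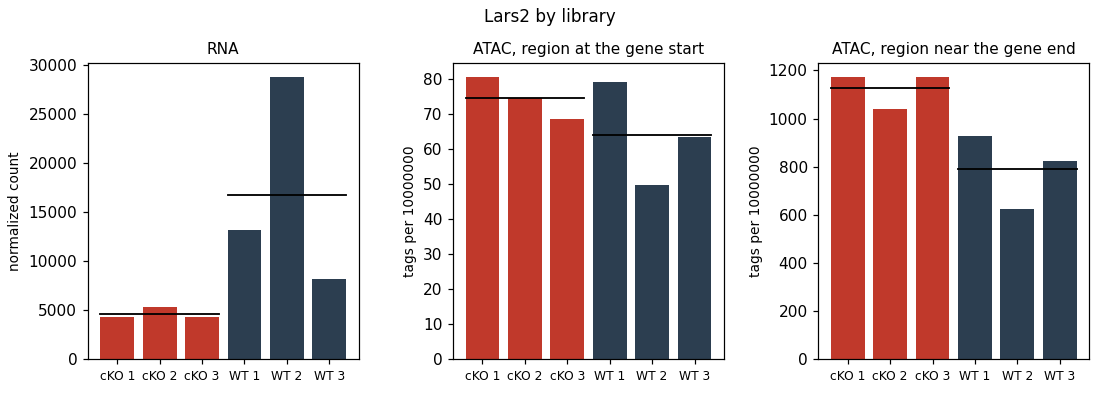
Lars2 in each library: normalized count of its RNA (left), and ATAC-seq peak height in tags per 10000000 at the gene's start (middle) and near its end (right). Bars are single libraries, cKO in red and WT dark, and black lines are group means. RNA is 4324 to 5360.4 in cKO and 8149.9 to 28786 in WT. The ATAC region near the end has a greater deposited height in every cKO library than in any WT library, a difference whose sign depended on the scaling.

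Genes that work beside the synthetases gave no call by limma either. The 3 scaffold proteins of the multisynthetase complex were all below 0, with a median of -0.29; Aimp1 had 623.6, 848.8 and 725.4 normalized counts in cKO, against 941.6, 868.3 and 911.2 in WT (log2 difference -0.32, limma adjusted p 0.485), while Eef1e1 was at -0.29 and Aimp2 at -0.21. The 5 genes of the route by which mitochondria make glutaminyl-tRNA and formyl-methionyl-tRNA had a median of -0.17, with 4 below 0. Ears2 in that route had 121.9, 168.4 and 95.3 in cKO, against 141.6, 155.6 and 145.8 in WT (log2 difference -0.24, limma adjusted p 0.778). Of 6 proofreading and selenocysteine genes 5 were below 0, with a median of -0.23, and Aarsd1, a protein related to the alanyl-tRNA editing domain, was at -0.29 (limma adjusted p 0.613).

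The 9 translation elongation factors, which take charged tRNAs to the ribosome or serve that step, had a median of -0.19, with 6 below 0. At an unadjusted limma p under 0.05, 3 were lower and 0 higher in cKO, against 6.05% of all genes in each direction. Without overlap 3 were lower and 0 higher, against 9.76% and 7.4% of all genes. Eef1d, a subunit of the exchange factor that recharges eEF1A with GTP, had 1847, 2042 and 1838 normalized counts in cKO, against 2992, 2881 and 2911 in WT. Its groups lay well apart, at a log2 difference of -0.62 (SE 0.132), but the limma adjusted p was 0.0813. In the authors' deposited table, which called 3.9% of genes as lower, it passed with an adjusted p of 0.00244, as the only one of the 9. Eef1b2, another subunit of that factor, was at -0.44 (limma adjusted p 0.177), and Tsfm, its mitochondrial counterpart, at -0.76 (limma adjusted p 0.311).

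ATF4 targets and genes of amino acid supply went both ways. Of 26 listed, 25 were tested; 14 were above 0 and 11 below, with a median of 0.14, and 7 were higher and 1 lower at an unadjusted p under 0.05, where 6.05% of all genes were in each direction. Sesn2, a leucine sensor induced by stress, had 1624, 1115 and 1719.8 normalized counts in cKO, against 882.7, 728.8 and 785.7 in WT (log2 difference 0.87, SE 0.188, limma adjusted p 0.083). Phgdh, the first enzyme of serine synthesis, had 721.6, 702.4 and 746.7 in cKO, against 1315, 1187 and 1372 in WT (log2 difference -0.83, SE 0.154, limma adjusted p 0.0546). For each, all cKO libraries lay on one side of all WT libraries. In the authors' deposited table Sesn2 and Phgdh passed, with adjusted p values of 0.00125 and 0.000104, as did Ddit3, which encodes the stress factor CHOP, at 0.048. These were 2 higher and 1 lower. Trib3, Slc1a4, Chac1, Pycr1 and Vldlr of the 25 had no adjusted p there and could not be called. Of the genes with an adjusted p, that table called 1.78% as higher and 3.9% as lower. Atf4 itself averaged 3075 ± 333.1 in cKO and 2753 ± 225.4 in WT (SD, n = 3 each), with a log2 difference of 0.16 (limma adjusted p 0.698).

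**Figure D4:**
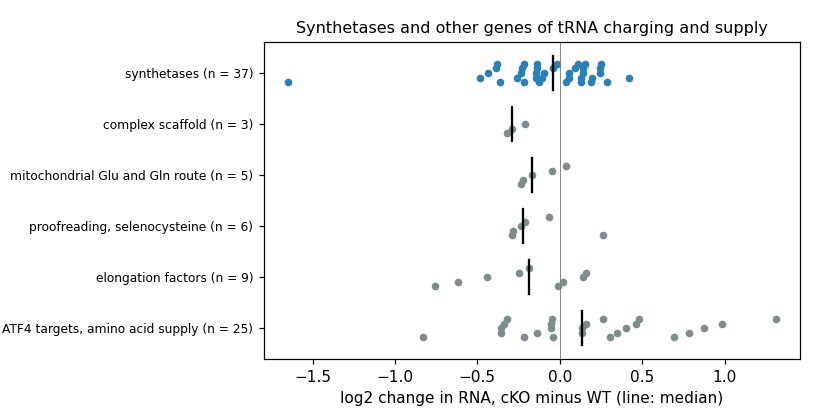
Difference in RNA, cKO minus WT on the log2(normalized count + 1) scale (x axis), of the 37 synthetases and of 5 lists of genes that work with them; each dot is a gene and each black line the median of a list. Lists centre between -0.29 and 0.14, and the ATF4 targets and amino acid supply spread from -0.83 to 1.31.

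Promoter sequences were looked at because ATF4 and NRF2 are known to bind short DNA elements at the start of their target genes. Promoters of 27 members were at hand, from 250 bases before to 50 bases after the start, out of 32851 promoters of all genes; both strands were searched. TGATGNAA, an element of CCAAT/enhancer binding protein and ATF factors, was in 5 members (Aars, Gars, Iars, Tars and Yars), 18.5%, against 3.97% of all promoters. TGACNNNGC, the core of the antioxidant response element, was in 6 (Aars, Aars2, Iars, Lars2, Mars1 and Nars2), 22.2% against 12.4%. CACGTG, the E box, was in 4 (Aars, Farsb, Iars and Tars), 14.8% against 7.15%. No match overlapped another. The promoters of members held a median of 57.7% G and C, against 52.7% over all promoters.

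The promoters of 4 named members with such a match are shown, as RefSeq gives them on GRCm38.p6, with capitals marking the matches. Farsb and Mars1, named members that also hold a match, are not shown. Iars holds all 3 elements, Yars is the member whose start region passed limma's test after quantile normalization, Gars has TGATGNAA on the minus strand, and Lars2 has TGACNNNGC matches on the minus strand.
Iars, chr13:49681880-49682179, + strand: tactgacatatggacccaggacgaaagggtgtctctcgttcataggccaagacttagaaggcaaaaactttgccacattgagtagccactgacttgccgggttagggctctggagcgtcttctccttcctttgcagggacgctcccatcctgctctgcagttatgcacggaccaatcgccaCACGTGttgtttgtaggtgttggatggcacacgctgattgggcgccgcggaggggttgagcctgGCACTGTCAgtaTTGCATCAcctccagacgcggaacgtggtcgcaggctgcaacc
Yars, chr4:129189653-129189952, + strand: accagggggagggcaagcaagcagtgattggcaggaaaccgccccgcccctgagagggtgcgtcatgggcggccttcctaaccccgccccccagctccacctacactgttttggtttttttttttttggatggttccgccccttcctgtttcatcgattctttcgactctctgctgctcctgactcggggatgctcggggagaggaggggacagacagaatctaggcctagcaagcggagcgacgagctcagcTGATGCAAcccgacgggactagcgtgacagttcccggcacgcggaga
Gars, chr6:55037751-55038050, + strand: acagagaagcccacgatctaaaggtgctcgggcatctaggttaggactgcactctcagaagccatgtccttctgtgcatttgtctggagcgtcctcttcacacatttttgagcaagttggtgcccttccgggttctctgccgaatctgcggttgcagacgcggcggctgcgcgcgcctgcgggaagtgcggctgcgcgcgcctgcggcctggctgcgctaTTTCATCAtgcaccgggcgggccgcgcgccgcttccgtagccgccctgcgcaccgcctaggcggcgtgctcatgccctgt
Lars2, chr9:123366677-123366976, + strand: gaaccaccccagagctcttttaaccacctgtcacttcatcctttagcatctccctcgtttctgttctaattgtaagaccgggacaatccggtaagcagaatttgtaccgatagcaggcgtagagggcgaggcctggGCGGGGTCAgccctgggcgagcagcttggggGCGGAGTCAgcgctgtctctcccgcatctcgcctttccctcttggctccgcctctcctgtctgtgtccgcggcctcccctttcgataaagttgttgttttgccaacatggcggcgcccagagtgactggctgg
Counted with 0 at the start base, the TGATGNAA match of Yars begins at position 3 and that of Gars at -30, while Iars has one from 7 and Lars2 has its pair of TGACNNNGC matches from -114 and -83. A match is a string of letters and was not tested for binding.

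Open chromatin was present at every synthetase gene. All 37 had an ATAC-seq region within 1 kb of the start with a peak in all 6 libraries, making 36 distinct regions since Hars and Hars2 share one. Against the 33531 regions with a peak in all libraries, the member regions ranked from the 59.0th percentile of height upward, with a median at the 81.8th. Heights are tags per 10000000 tags, and differences are log2 of height plus 1 after quantile normalization of the libraries. WT library 2 had 25.2% of its tags in peaks, against 34.9 to 38.3% in the other libraries. Deposited heights are not corrected for this, and its part in the spread and level of the WT heights was not tested.

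Of the 36 regions 1, at Yars, was higher in cKO and none was lower by limma at an adjusted p of 0.05, where 3.67% of all regions were higher and 4.33% lower. The Yars region had heights of 371.8, 370.0 and 378.7 in cKO, against 265.7, 152.8 and 248.9 in WT. Every cKO library was above every WT library, with cKO tightly grouped at 373.5 ± 4.59 and WT at 222.5 ± 60.9 (SD, n = 3 each). The log2 difference was 0.36 (SE 0.0677, limma adjusted p 0.0153). Its size depends on the scaling, at 0.79 with no further scaling (limma adjusted p 0.0238), 1.09 with library medians subtracted (3.14e-05) and 0.33 with cyclic loess (0.0126). It runs over chr4:129188540-129190849 and covers the promoter printed above. The call was lost without any 1 of the 3 cKO libraries (limma adjusted p 0.0599 to 0.0706) and with tags divided by peak length (0.0982), while the direction was kept. RNA of Yars, at a log2 difference of 0.19 (SE 0.202), did not pass (limma adjusted p 0.745).

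The next 3 by p were Mars1 at -0.27, Wars at 0.35 and Vars2 at 0.24, with limma adjusted p values of 0.0788, 0.0993 and 0.0998. The Vars2 region, at the gene for mitochondrial valyl-tRNA synthetase, had heights of 163.5, 165.0 and 173.8 in cKO, against 136.6, 96.9 and 129.5 in WT. Wars had 114.5, 106.9 and 131.9 in cKO, against 100.0, 72.6 and 83.0 in WT. In both, the groups did not overlap. Mars1 had 159.4, 145.0 and 147.9 in cKO, against 169.8, 123.3 and 165.6 in WT, and its deposited heights overlap.

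Over all 36 regions the median difference was 0.07, beside 0.02 over all regions, with 20 above 0. In the deposited heights, 12 regions were higher in cKO without overlap and none lower, where 13.6% of all regions were higher and 21.8% lower. The count depends on the scaling: with library medians subtracted in place of quantile normalization, 30 of the 36 passed as higher, where 28.0% of all regions did and 5.48% were lower, and the median was 0.54. Tall regions shift together under that scaling, by a median of 0.76 in the tallest 10% of regions, against 0.45 with no further scaling and 0.05 after quantile normalization. Quantile normalization gives every library the same set of heights, so it would also remove a real shift of tall regions. Whether the shift is real was not tested.

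At Lars2 the region at the start, chr9:123366308-123368001, had heights of 80.7, 74.7 and 68.8 in cKO, against 79.3, 49.9 and 63.5 in WT. The groups overlap, and the log2 difference was 0.28 (SE 0.133, limma adjusted p 0.197), opposite in sign to the RNA. A second region, chr9:123461602-123462379, lies 296 bp short of the gene's end and was the 28th tallest of all 33531. It had heights of 1172, 1038 and 1173 in cKO, against 926.2, 623.7 and 825.3 in WT, without overlap. Its difference was 0.02 after quantile normalization (limma adjusted p 0.877) and 0.83 with medians subtracted (limma adjusted p 6.08e-05). With no further scaling it was 0.53 (limma adjusted p 0.216), and with cyclic loess it turned to -0.22 (limma adjusted p 0.114). The deposited clonal fold change of that region, the authors' ratio of expected to observed unique tag positions, which is above 1 where tags pile on fewer positions than expected, was 1.56, 1.44 and 1.52 in cKO and 1.60, 1.62 and 1.61 in WT, where the median region had 0.997 and 11 regions in all reached its mean.

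**Figure D5:**
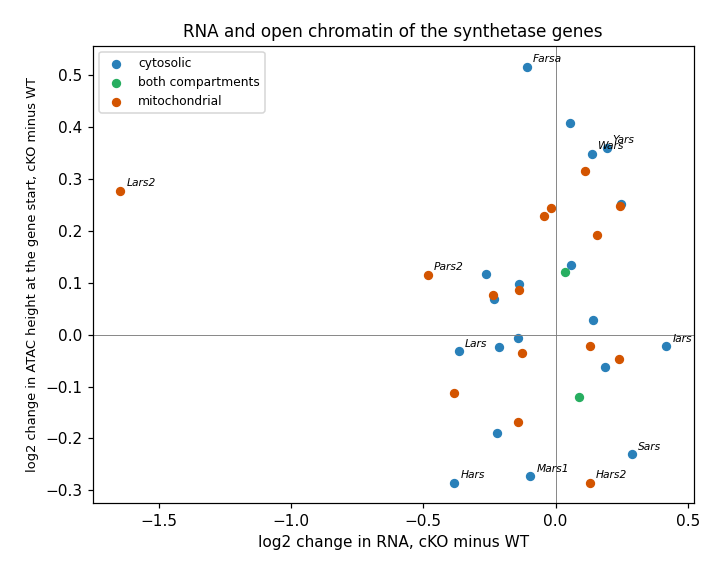
Difference in ATAC-seq height at the gene's start (y axis, log2(height + 1) after quantile normalization) against the difference in RNA (x axis, log2(normalized count + 1)), both cKO minus WT, for 36 synthetase genes colored by compartment. Yars lies at 0.36 in height and Lars2 at -1.65 in RNA; over all 37 members the signs were the same for 20.

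With library medians subtracted, the height difference was above 0 at every member's start, so its sign depended on the scaling. After quantile normalization, RNA and open chromatin had the same sign in 20 of 37 members, with the region shared by Hars and Hars2 counted for each. Both were below 0 in 10 genes and both above 0 in 10, with opposite signs in the others. Iars, which had the highest RNA difference of the members, had heights of 79.3, 82.4 and 84.0 at its start in cKO, against 99.6, 55.9 and 95 in WT (log2 difference -0.02, limma adjusted p 0.929). Farsa had the largest height difference, at 0.52 (limma adjusted p 0.129), with RNA at -0.11.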

How the data were processed

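RNA-seq and ATAC-seq were each made from 3 cKO and 3 WT libraries, grouped by the labels. Per the submitters' processing notes the RNA and ATAC work used mm10 with the tools Bowtie2 2.3.5.1, STAR, HOMER 4.11, edgeR, RSEM 1.3.3 and DESeq2; their settings are not given in the sources used here. RNA values are a deposited signal: counts normalized by the authors, 1 value per gene and library. Only 0.18% of the non-zero ones come within 0.001 of being whole, which leaves the reads behind them and the raw depth unknown. The authors' deposited log2 fold change stands in 2 columns of opposite sign, of which the one that runs cKO over WT was used, and the authors' deposited p-values and adjusted p-values (9263 genes) are their own test. Per the file headers, each ATAC library has its own deposited list of HOMER peaks, in which peak height is a signal in tags scaled to 10000000 per library. The lists, per the file headers, also give a score in unscaled tags (not used here) and a clonal fold change, the ratio of expected to observed unique tag positions; peaks passed a Poisson p-value of 0.001. The ATAC libraries held 13149952 to 18327127 tags, with 25.2 to 38.3% in peaks, the lowest share being that of WT library 2.

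For genes averaging at least 10, limma 3.58.1 (R 4.3.3) tested log2(value + 1) with trended moderation of the variance, with Benjamini-Hochberg adjustment over all genes and a threshold of 0.05. Overlapping peaks (by 1 bp or more) were joined in Python 3.11.15 with pandas 2.3.3, and the 33531 regions with a peak in all 6 libraries were tested by limma on quantile-normalized log2(height + 1), which was taken as the main scaling because subtracting medians left a shift that grew with height. Both fits were also run on simulated data with planted changes and noise independent between libraries. Their recovery is not reported here, so that run gives no measure of what the fits could miss. Gene starts came from RefSeq promoters on GRCm38.p6 for 27 members; for the other 10 both gene ends were used within 1 kb.

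Of the members, 1 is counted in the totals but not reported by name here. The members and lists were chosen with earlier results of these data known. Named members are those past 0.05 in limma or in the authors' table, the 10 with the smallest limma p, Farsa, Farsb, Gars, Kars, Eprs and Lars2, and the 4 start regions with the smallest ATAC p; of each other list up to 3 genes with the smallest p, and Ears2. Ranking by count per coding length and the protein signatures in the plan were left out, since no coding lengths or protein sequences were used here. Levels were therefore not compared between genes, apart from the uncorrected mean of Lars2 beside those of Sars and Iars2. Of 6 genes that overlap ribosomal RNA, planned beside Lars2, none was analysed here. Dars, Pars2, Hars2 and Rars2 were singled out, and Atf4, Il13, Ccr8, Cd3d, Cd3e and Cd4 were named, after their values were seen. Alternatives were other scalings, filters, pseudocounts, weights, a replicate block and leaving out each library; the fits of the other lists under them were added after seeing the data.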

Additional observations from a re-analysis of the deposited data

How the results depend on the processing

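Against 37 genes called in RNA, TMM rescaling called 13, a fit with no mean-variance trend 6, sample quality weights 1783 and the authors' adjusted p 526; leaving out each library gave 1 to 150, the lowest without WT library 2 and the highest without cKO library 2. Against 0 synthetases called, a minimum mean of 1, a pseudocount of 5 and the authors' adjusted p each gave 1 (Lars2), quality weights gave 2 (Lars2 and Iars), and leaving out libraries gave 0 to 1. Their median difference ran from -0.10 (quantile normalization) to 0.03 (without cKO library 2). Whether the same replicate numbers pair the samples was not settled. Between libraries of the same number, deviations from group means correlated at 0.116, 0.206 and -0.0554 for RNA and at -0.0234, -0.00762 and 0.004 for ATAC. In RNA, cKO libraries 1 and 2 correlated best with their own number, while cKO library 3 correlated best with WT library 1 (0.215). With the replicate block 122 genes were called, 1 synthetase (Lars2, limma adjusted p 0.0176) and 2 of the other genes.

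Against 0 called in the other lists, minimum means of 1 and 50 and a pseudocount of 5 each gave 1 (Phgdh), quantile normalization 2, quality weights 10, the authors' adjusted p 4, and leaving out libraries 0 to 3. Signs turned for Vars2, at 0.32 with quality weights; leaving out libraries gave -0.26 to 0.26 for Vars2, -0.049 to 0.139 for Gars, -0.00902 to 0.223 for Kars, -0.209 to 0.034 for Farsa and -0.183 to 0.028 for Mars1. Against 2681 ATAC regions called, subtracting library medians called 11223, summed tags 4742 and tags per kb of peak 837, and leaving out libraries gave 377 to 2096. Of the synthetase start regions, against 1 called, subtracting medians called 30, tags per kb of peak 0, and leaving out libraries 0 to 1; ATAC at Mars1 turned to 0.30 with medians subtracted and at Wars to -0.13 with tags per kb. The causes were not tested. With 3 libraries a group, and standard errors of at least 0.155 for the members, small differences were not detectable.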
